A study of Mus musculus with 34 samples.

Results

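The genes described here are the 10 members of a set that runs from the receptor of the cytokine interleukin 2 (IL-2) to the signal carriers behind it and the brakes they switch on, picked by name from the 48526 genes of the count table. They are the receptor chains Il2ra, Il2rb and Il2rg, the transcription factors Stat5a and Stat5b, the suppressors Cish, Socs1, Socs2 and Socs3, and the cytokine Osm. All 10 were found in the table and all passed the filter on low counts. The RNA came from T cells of C57BL/6 mouse spleens, taken at 6 to 12 weeks of age, purified by removing other cells and stimulated in culture with antibodies to the T cell receptor complex (CD3) and to the costimulatory receptor CD28 together with recombinant IL-2. Libraries of day 1 (24 h) and day 3 (72 h) came from mice labelled Ars2 KO (3 libraries on each day), CD28 KO (2 on each day), DKI (3 on each day), CD28 AYAA (3 on each day), CD28 Y170F (3 on each day) and WT (2 on each day), and 2 libraries of unstimulated WT cells stand for day 0, which makes 34 libraries in 13 groups. Ars2 KO concerns ARS2, encoded by Srrt, a partner of the complex that binds the cap of new transcripts. CD28 AYAA and CD28 Y170F are altered forms of CD28 named for changes in its signalling tail. DKI is described as a CD28 allele without naming its changes, and the promoter or cell type behind the knockouts is not given in the labels. All cells, WT included, received IL-2 from outside during stimulation.

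The high-affinity IL-2 receptor is built from an alpha chain (Il2ra, also CD25), a beta chain (Il2rb) and the common gamma chain (Il2rg), which is shared with the receptors of several other cytokines. Binding of IL-2 activates the kinases JAK1 and JAK3, which phosphorylate STAT5A and STAT5B, and these move to the nucleus and bind DNA at pairs of half-sites of the form TTCNNNGAA. Among the genes they switch on in T cells are Il2ra itself and the suppressors Cish, Socs1 and Socs2, whose proteins bind receptors or kinases and damp the signal. Osm, which encodes oncostatin M of the IL-6 family, was described as a STAT5-induced gene as well.

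Library totals ranged from 8.3 to 47.8 M (mega) counts, and 8 of them lay under 12 M: the 6 of DKI and the WT libraries numbered 4 at days 1 and 3. Srrt was at 33.8, 64.8 and 33.5 CPM (counts per M counts of the library, scaled between libraries by the TMM method) in Ars2 KO and at 244 and 131 CPM in WT at day 1, and at 108, 146 and 106 CPM against 245 and 145 CPM at day 3. Cd28 counts were at 482 and 476 CPM in libraries labelled CD28 KO and at 387 and 411 CPM in WT at day 1, and at 212 and 214 CPM against 474 and 587 CPM at day 3. At day 3 they were also below WT in DKI (270 to 304 CPM), CD28 AYAA (283 to 323 CPM) and Ars2 KO (232 to 451 CPM), so the gene-level count does not check the label CD28 KO on either day. Summed T cell markers (13 genes) lay between 2400 and 4010 CPM in every library. Summed B cell markers (12 genes) were at most 138 CPM in stimulated cells, against 981 and 1100 CPM at day 0, and summed myeloid markers (14 genes) at most 39.9 CPM, against 233 and 234 CPM. Judged by Xist and genes of the Y chromosome, both day 0 libraries came from females and all stimulated WT and all DKI libraries from males, and the other groups were mixed. Sex and stimulation cannot be told apart in the comparison of WT with day 0, and the part of sex in the differences between genotypes was not tested. In bulk RNA, fewer cells that make a transcript and less of it per cell cannot be told apart.

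Calls rest on edgeR's quasi-likelihood test, with p-values adjusted by the Benjamini-Hochberg method over the 18292 genes tested and a threshold of 0.05. Nothing in the labels says which libraries came from separate mice, beyond the design text calling them biological replicates. In WT cells 6 of the 10 members rose at day 1 over day 0 and none fell, where 51.3% of all genes tested were called. At day 3 over day 0, 6 rose and 2 fell (50.5% of all genes called). Between day 3 and day 1 of WT, 1 member rose, namely Il2rb, and 3 fell, namely Cish, Socs1 and Stat5a (29.5% of all genes called). The calls of Il2rb and Socs1 were lost without some single WT libraries. The members' median log2 fold change was 0.70 at day 1 and 1.05 at day 3 over day 0, beside medians of -0.02 and -0.07 over all genes tested.

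Il2ra (chr2:11642807-11693193, GRCm38, plus strand) moved most among the receptor chains. In unstimulated WT cells it was at 26.9 and 30.4 CPM, at day 1 at 786 and 644 CPM and at day 3 at 648 and 403 CPM. The log2 fold change over day 0 was 4.64 (SE 0.30, adjusted p = 3.5e-12) at day 1 and 4.20 (SE 0.29, adjusted p = 1.1e-11) at day 3. At day 1 the libraries labelled CD28 KO held 96.9 and 91.6 CPM, against the 786 and 644 CPM of WT. DKI cells held 262, 254 and 271 CPM and CD28 AYAA cells 381, 367 and 359 CPM on that day. These groups formed separate steps, with no value of one inside the range of another and all of them under WT. The log2 fold changes against WT were -2.92 (SE 0.27, adjusted p = 1.7e-08) in libraries labelled CD28 KO, -1.45 (SE 0.23, adjusted p = 6.8e-05) in DKI and -0.96 (SE 0.23, adjusted p = 0.025) in CD28 AYAA. Ars2 KO cells, with 454, 574 and 909 CPM, and CD28 Y170F cells, with 713, 689 and 673 CPM, overlapped WT and were not called. The CD28 AYAA call was lost on leaving out any one of its 3 libraries or WT number 1 (adjusted p = 0.055 to 0.34).

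At day 3 no genotype was called against WT in Il2ra. Libraries labelled CD28 KO held 487 and 400.1 CPM, DKI 726, 702 and 750.1 CPM, CD28 AYAA 766, 914 and 778 CPM and Ars2 KO 644, 868 and 956 CPM, against 648 and 403 CPM in WT. The libraries labelled CD28 KO, DKI and CD28 AYAA kept their day 1 order without overlap. All DKI and CD28 AYAA libraries now lay above both WT libraries. Log2 fold changes against WT lay between -0.275 in CD28 Y170F and 0.65 in Ars2 KO, with -0.25 in libraries labelled CD28 KO. From day 1 to day 3, Il2ra rose in libraries labelled CD28 KO (log2 fold change 2.23, SE 0.27, adjusted p = 3.3e-07), in DKI (1.47, SE 0.21) and in CD28 AYAA (1.15, SE 0.21). It fell in CD28 Y170F (-0.67, SE 0.21, adjusted p = 0.012), with 565, 456 and 282 CPM at day 3 against 713, 689 and 673 CPM at day 1. That fall was not called without CD28 Y170F number 3 of day 3 (-0.44, adjusted p = 0.1).

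Il2rb (chr15:78479256-78495271, minus strand), the signalling chain that IL-2 and IL-15 share, was already well expressed at day 0, with 258 and 285 CPM in WT, and reached 467 and 384 CPM at day 1 and 736 and 555 CPM at day 3. At day 1 it was at 119 and 152 CPM in libraries labelled CD28 KO, which is below the day 0 values (log2 fold change over day 0 -1.002, SE 0.18, adjusted p = 6.4e-05). DKI held 207, 185 and 213 CPM (-0.43 over day 0, adjusted p = 0.032). That difference was not called on leaving out either WT library of day 0 or DKI number 1 or 2, and was -0.085 (adjusted p = 0.84) with low depth as a term. CD28 AYAA held 228, 253 and 272 CPM. Summed NK cell markers (10 genes) were at 189 to 205 CPM at day 0. At day 1 they were at 114 to 136 CPM in WT, 84.1 to 132 CPM in libraries labelled CD28 KO and 94.0 to 102 CPM in DKI. Of 9 tested, 8, 7 and 8 were called lower than at day 0 in that order, and 1, 0 and 0 higher. Their part in the Il2rb values was not tested. Against WT of day 1 the log2 fold changes were -1.65 (SE 0.18) in libraries labelled CD28 KO, -1.08 (SE 0.16) in DKI and -0.76 (SE 0.16, adjusted p = 0.013) in CD28 AYAA. The last was not called without CD28 AYAA number 1 or without WT number 1. By day 3 no genotype was called against WT, and the values in these 3 genotypes ran from 622 to 770 CPM. Between the days Il2rb was called higher at day 3 in every genotype, with the largest log2 fold change (2.24, SE 0.19) in libraries labelled CD28 KO. The smallest, in CD28 Y170F (0.37, SE 0.15, adjusted p = 0.047), was 0.10 (adjusted p = 0.56) without number 1 of its day 3 libraries. The rise in WT (0.60) was 0.40 (adjusted p = 0.2) without WT number 1 of day 3.

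Il2rg (chrX:101264378-101268255, minus strand) hardly set the genotypes apart. It rose in WT with stimulation, with 208 and 207 CPM at day 0, 325 and 355 CPM at day 1 and 374 and 373 CPM at day 3 (log2 fold changes over day 0 of 0.71, SE 0.08, and 0.85, SE 0.08). The one called difference from WT was that of libraries labelled CD28 KO at day 1, with 262 and 263 CPM against 325 and 355 CPM (-0.37, SE 0.08, adjusted p = 8.0e-04). The annotation places the gene Gm20489 over Il2rg on the same strand, so reads of the pair may have been divided.

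**Figure D1:**
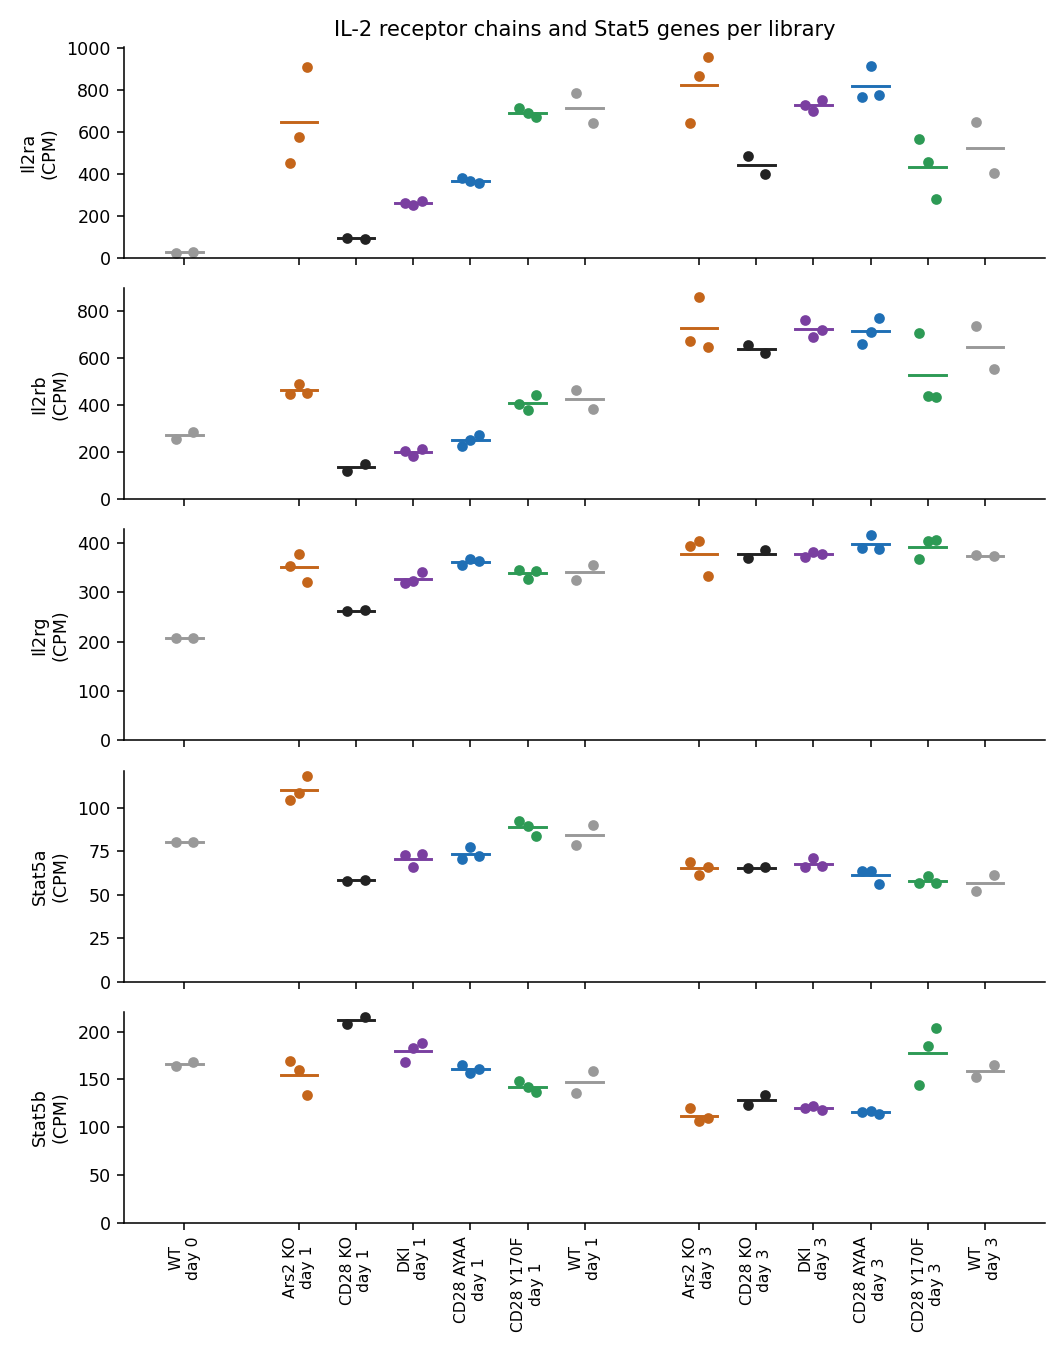
Level (CPM, linear axis from 0) of Il2ra, Il2rb, Il2rg, Stat5a and Stat5b in each of the 34 libraries, with points for libraries and lines for group means, by day and genotype. At day 1 Il2ra steps up from the libraries labelled CD28 KO (96.9 and 91.6 CPM) through DKI and CD28 AYAA to WT (786 and 644 CPM), and at day 3 the groups overlap WT or lie above it.

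Cish (chr9:107296026-107302784, plus strand), the founding member of the SOCS family, encodes CIS, which competes with STAT5 for the activated receptor. The promoters of Cish and Socs3 are shown because they are the ones among the members' windows that hold the STAT motif. The RefSeq promoter table (GRCm38.p6) gave windows for 7 of the 10 members, 9 windows in all, reaching from 250 bases before the transcript start to 50 bases after it. The motif TTCNNNGAA reads the same on both strands, was searched in all 32851 windows of that length and was found in 8.3% of them, and 0.46% held it 2 times or more. Cish held 2 copies, beginning at base 1 and base 12 of the transcript, and Socs3 held 1, beginning 154 bases before the start, and no match was found in the windows of Il2ra, Il2rg, Socs1, Stat5a and Stat5b. Both stretches are given 5′ to 3′ on the gene's strand, up to 30 bases past the start, with the motif copies in capitals (Cish chr9:107296409-107296688, plus strand, and Socs3 chr11:117969337-117969616, minus strand).
Cish: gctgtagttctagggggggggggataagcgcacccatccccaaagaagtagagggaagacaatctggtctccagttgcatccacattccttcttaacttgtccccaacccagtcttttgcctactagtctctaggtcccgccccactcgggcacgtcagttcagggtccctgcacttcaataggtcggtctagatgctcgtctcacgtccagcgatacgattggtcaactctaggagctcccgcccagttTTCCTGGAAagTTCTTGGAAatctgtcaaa
Socs3: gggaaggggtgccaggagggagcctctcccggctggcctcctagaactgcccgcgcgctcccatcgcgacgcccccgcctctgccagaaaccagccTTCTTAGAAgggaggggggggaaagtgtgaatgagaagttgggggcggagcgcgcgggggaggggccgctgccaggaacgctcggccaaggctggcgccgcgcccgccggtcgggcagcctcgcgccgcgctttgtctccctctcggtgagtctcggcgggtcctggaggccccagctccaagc
The motif is a match of letters, not a site shown to be bound.

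In WT, Cish was at 11.1 and 9.59 CPM at day 0, at 255 and 278 CPM at day 1 and at 80.7 and 40.6 CPM at day 3. It thus rose at day 1 over day 0 (log2 fold change 4.68, SE 0.40, adjusted p = 6.1e-10) and was lower at day 3 than at day 1 (-2.12, SE 0.35, adjusted p = 5.2e-05). CD28 Y170F did the same, with 54.0, 24.1 and 18.8 CPM at day 3 against 323, 333 and 272 CPM at day 1 (-3.26, SE 0.30, adjusted p = 5.2e-09). Early on, every library of the other CD28 alleles lay under both WT libraries. At day 1 it was at 56.6 and 58.2 CPM in libraries labelled CD28 KO (log2 fold change against WT -2.21, SE 0.35, adjusted p = 2.1e-05), at 123, 111 and 128 CPM in DKI (-1.14, SE 0.31, adjusted p = 0.0081) and at 138, 158 and 151 CPM in CD28 AYAA, which was not called (-0.83, SE 0.30, adjusted p = 0.11).

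At day 3 WT held less Cish than 4 of the genotypes. Libraries labelled CD28 KO held 254 and 226 CPM, DKI 311, 328 and 288 CPM, CD28 AYAA 301, 289 and 274 CPM and Ars2 KO 259, 329 and 142 CPM, against 80.7 and 40.6 CPM in WT. Every library of these 4 genotypes lay above both WT libraries. Those labelled CD28 KO lay below all DKI and CD28 AYAA libraries, as at day 1. The log2 fold changes against WT were 1.97 (SE 0.35, adjusted p = 3.2e-04) in libraries labelled CD28 KO, 2.33 (SE 0.34, adjusted p = 2.7e-05) in DKI, 2.23 (SE 0.34, adjusted p = 5.9e-05) in CD28 AYAA and 1.99 (SE 0.33, adjusted p = 3.6e-04) in Ars2 KO. These comparisons share the same 2 WT libraries, of which number 1 held the 80.7 CPM and number 4, of low depth, the 40.6 CPM. Against the WT library of like depth alone, the values were 1.57 (adjusted p = 0.016), 2.92 (adjusted p = 1.2e-04), 1.83 (adjusted p = 0.0077) and 1.59 (adjusted p = 0.028) in that order of genotypes. Ars2 KO was not called against WT in Cish at day 1, with 221, 266 and 365 CPM against 255 and 278 CPM. Its change between the days was not called (-0.22, SE 0.27), and in a fit to the Ars2 KO and WT groups alone its day 3 difference was not called either (2.00, adjusted p = 0.22). Cish overlaps the genes Gm17040 and Gm17041 on the opposite strand, and the strand setting of the counting is not given in the sources used here.

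**Figure D2:**
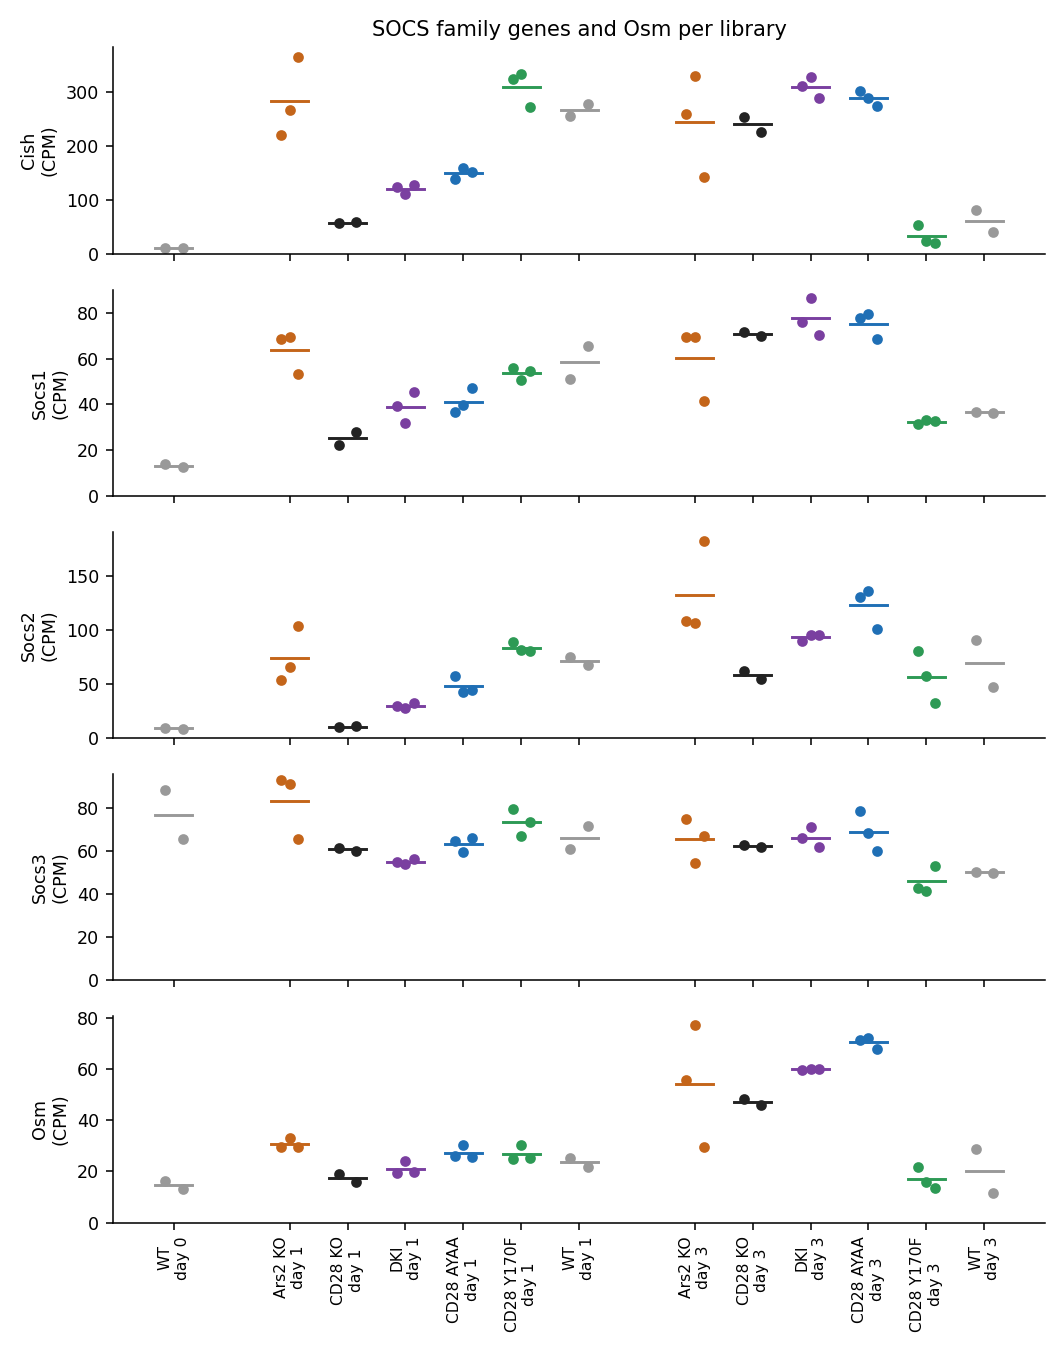
Level (CPM, linear axes from 0) of Cish, Socs1, Socs2, Socs3 and Osm in each library, with points for libraries and lines for group means. At day 3, Cish in the groups CD28 AYAA, DKI, Ars2 KO and CD28 KO lies between 142 and 329 CPM, above the 18.8 to 80.7 CPM of CD28 Y170F and WT.

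Socs1 (chr16:10782240-10785536, minus strand), whose protein blocks JAK kinases directly, followed the course of Cish on a smaller scale. It was at 13.9 and 12.5 CPM at day 0, 51.2 and 65.7 CPM at day 1 and 36.8 and 36.1 CPM at day 3 in WT, and at 22.3 and 28.1 CPM at day 1 in libraries labelled CD28 KO. The day 1 differences from WT were -1.21 (SE 0.20, adjusted p = 2.3e-05) there and -0.58 (SE 0.18, adjusted p = 0.017) in DKI. The DKI call was lost without DKI number 2, without WT number 1 (-0.71) or without WT number 4 (-0.40). At day 3 it was at 71.8 and 70.0 CPM in libraries labelled CD28 KO, 75.9, 86.5 and 70.4 CPM in DKI and 77.6, 79.3 and 68.4 CPM in CD28 AYAA, against 36.8 and 36.1 CPM in WT. All 8 of those values were higher than any WT or CD28 Y170F value of that day. Log2 fold changes against WT were 0.96 (SE 0.19), 1.09 (SE 0.18) and 1.04 (SE 0.18), and 0.72 (SE 0.18, adjusted p = 0.0088) in Ars2 KO, where the values were 69.3, 69.4 and 41.5 CPM. With WT number 1 alone the Ars2 KO difference was 0.70 (adjusted p = 0.092), not called.

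Socs2 (chr10:95385362-95417180, minus strand), best known as the brake on growth hormone signalling, tracked Il2ra more closely than Cish. In WT it was at 9.34 and 8.62 CPM at day 0, 75.4 and 67.2 CPM at day 1 and 91.2 and 47.6 CPM at day 3. Libraries labelled CD28 KO still held 9.95 and 11.0 CPM at day 1, a level not called against day 0 (log2 fold change 0.22, SE 0.34, adjusted p = 0.6) and called lower than WT of day 1 (-2.77, SE 0.35, adjusted p = 8.3e-07). DKI held 29.7, 27.9 and 32.02 CPM (-1.26, SE 0.29, adjusted p = 0.003). By day 3 libraries labelled CD28 KO were at 61.7 and 54.96 CPM, inside the range of WT, whereas Ars2 KO was at 109, 106 and 182 CPM (0.92, SE 0.29, adjusted p = 0.038) and CD28 AYAA at 131, 136 and 101 CPM (0.81, SE 0.29, adjusted p = 0.048). Both of these calls were lost against WT number 1 alone, with 0.54 (adjusted p = 0.46) and 0.43 (adjusted p = 0.54), against 1.46 and 1.38 with WT number 4 alone, and that of Ars2 KO also without its number 3 (0.62, adjusted p = 0.14).

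Socs3 (chr11:117966079-117970047, minus strand), chiefly induced through STAT3, was not called higher with stimulation in WT. It was at 88.4 and 65.4 CPM at day 0, 61.0 and 71.5 CPM at day 1 and 50.1 and 50.1 CPM at day 3 in WT, called lower at day 3 than at day 0 (-0.62, SE 0.16, adjusted p = 0.0027) but not without WT number 1 of day 0 (-0.38, adjusted p = 0.11). No genotype was called against WT at day 1. At day 3 CD28 AYAA was called higher, with 78.8, 68.6 and 59.9 CPM (0.46, SE 0.15, adjusted p = 0.029). That call was lost without CD28 AYAA number 1 (0.36, adjusted p = 0.13) or number 2 (0.47, adjusted p = 0.06). It was also lost against WT number 1 alone (0.46) and WT number 4 alone (0.47).

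Osm (chr11:4236420-4241026, plus strand) was low in WT throughout, at 16.1 and 13.1 CPM at day 0, 25.4 and 21.8 CPM at day 1 and 28.8 and 11.5 CPM at day 3. No genotype was called against WT at day 1. At day 3 it was at 71.4, 72.0 and 67.6 CPM in CD28 AYAA, 59.5, 60.1 and 60.0 CPM in DKI, 48.3 and 46.0 CPM in libraries labelled CD28 KO and 55.6, 77.2 and 29.6 CPM in Ars2 KO, and all of these values exceeded both WT values. The log2 fold changes against WT were 1.76 (SE 0.29, adjusted p = 1.4e-04), 1.53 (SE 0.29, adjusted p = 4.2e-04), 1.19 (SE 0.30, adjusted p = 0.0069) and 1.39 (SE 0.29, adjusted p = 0.0024) in that order. Against WT number 1 alone, the higher of the 2 WT libraries, the calls were lost in libraries labelled CD28 KO (0.71, adjusted p = 0.15) and Ars2 KO (0.91, adjusted p = 0.094) and kept in CD28 AYAA (1.28, adjusted p = 0.012), and DKI against WT number 4 alone was called with 2.37, where Ars2 KO had 2.22 and libraries labelled CD28 KO had 2.03. Myeloid cells also make OSM. Summed myeloid markers at day 3 were 16.5 to 32.5 CPM in Ars2 KO, 8.89 to 9.83 CPM in libraries labelled CD28 KO, 5.92 to 6.03 CPM in DKI and 7.62 to 8.88 CPM in CD28 AYAA, against 9.57 to 11.3 CPM in WT, with 0, 2, 4, 4 and 5 of the 14 markers at 0 in that order. Of the 13 tested, 3 were called higher than WT and 0 lower in Ars2 KO (median log2 fold change 2.12). In libraries labelled CD28 KO, DKI and CD28 AYAA 0 were called higher, and 1, 2 and 2 lower in that order. Their part in the Osm levels was not tested in any genotype.

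Stat5a (chr11:100859351-100885169, plus strand) and Stat5b (chr11:100780731-100850724, minus strand) lie side by side and encode closely similar proteins, so reads may have been divided between them, and Stat5a also overlaps Stat3 on the opposite strand. Their changes were small and ran apart. Stat5a was at 80.4 and 80.0 CPM at day 0, 78.8 and 90.1 CPM at day 1 and 52.0 and 61.5 CPM at day 3 in WT (day 3 over day 1 -0.58, SE 0.09, adjusted p = 4.3e-05). It was higher than WT at day 1 in Ars2 KO, with 104, 108 and 118 CPM (0.38, SE 0.09, adjusted p = 0.040), and lower in libraries labelled CD28 KO, with 57.9 and 58.5 CPM (-0.54, SE 0.09, adjusted p = 5.9e-05), and in DKI (-0.26, SE 0.09, adjusted p = 0.028). The Ars2 KO call was lost on leaving out any one of its 3 or of the 2 WT libraries. The DKI call of day 1 was lost without DKI number 2, without WT number 1 (-0.31) or without WT number 4 (-0.17). It was also lost with no filter and with only the groups compared. Stat5a in DKI at day 3 was called higher than WT (0.26, SE 0.09, adjusted p = 0.032), and not against WT number 4 alone (0.13, adjusted p = 0.43).

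Stat5b went the opposite way to Cish, Socs1 and Osm. At day 1 it was highest in libraries labelled CD28 KO, with 209 and 216 CPM against 136 and 159 CPM in WT (0.52, SE 0.12, adjusted p = 6.2e-04), and called higher in DKI, with 169, 183 and 189 CPM (0.29, SE 0.11, adjusted p = 0.047), a call lost without DKI number 2 or 3 or WT number 1. At day 3 it was lower than WT in Ars2 KO, with 120, 107 and 110 CPM against 152 and 165 CPM (-0.50, SE 0.10, adjusted p = 0.0024), in DKI (-0.41, SE 0.10, adjusted p = 0.0059) and in CD28 AYAA, with 116, 117 and 114 CPM (-0.45, SE 0.10, adjusted p = 0.0028). The values of libraries labelled CD28 KO, 123 and 134 CPM, also lay under both WT values without being called (-0.31, adjusted p = 0.059). Against WT number 1 alone the log2 fold changes of Ars2 KO and CD28 AYAA were -0.44 (adjusted p = 0.057) and -0.40 (adjusted p = 0.069).

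**Figure D3:**
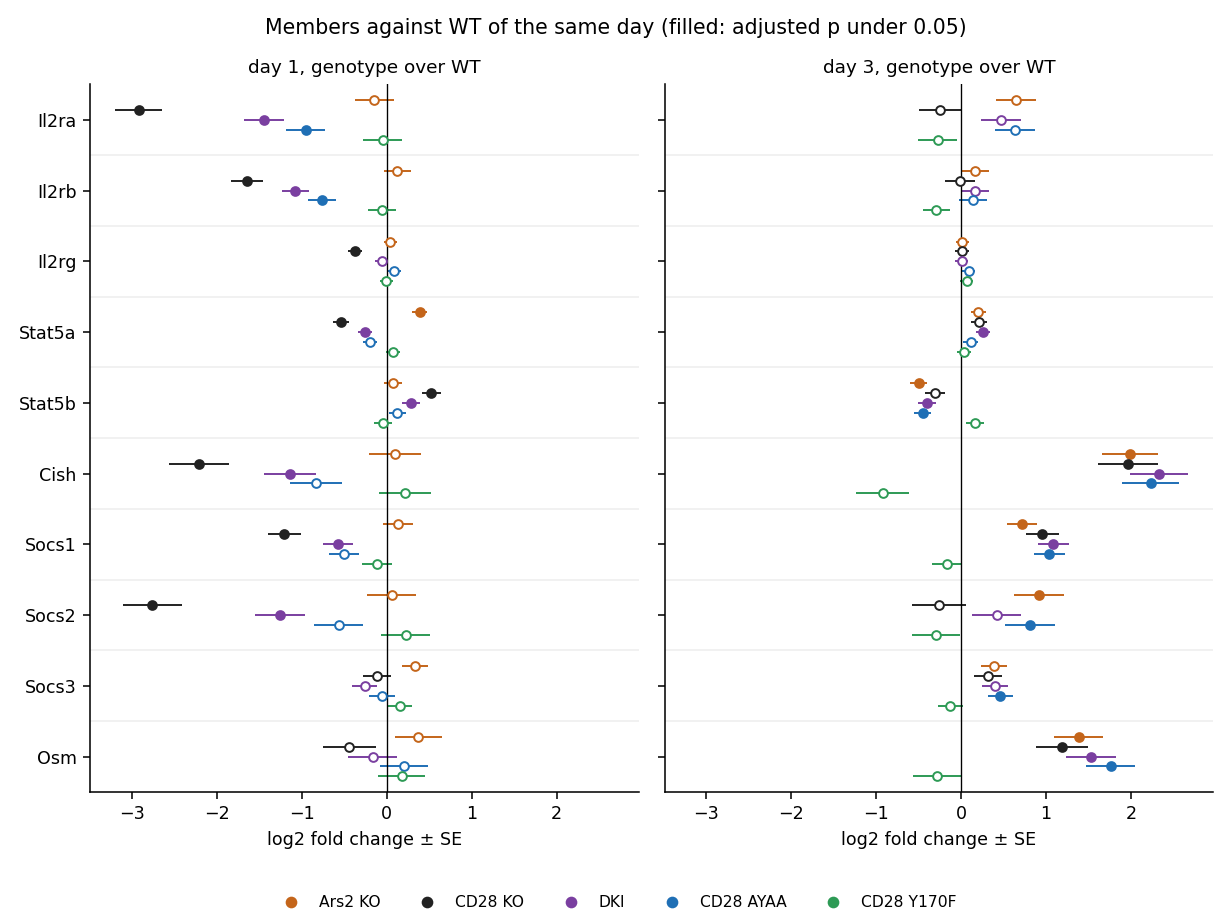
Log2 fold change of each member over WT of the same day, with SE bars, at day 1 (left) and day 3 (right), by genotype, with filled points at an adjusted p under 0.05. At day 1 the values of Il2ra, Il2rb, Cish, Socs1 and Socs2 in libraries labelled CD28 KO, DKI and CD28 AYAA lie left of 0, and at day 3 Cish, Socs1 and Osm lie right of 0 in all genotypes but CD28 Y170F.

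Counted over all members, libraries labelled CD28 KO at day 1 had 8 called against WT, 1 higher and 7 lower, where 43.3% of all genes were called, and a median log2 fold change of -0.87 beside 0.02 over all genes. Against WT number 1 alone the count was again 1 higher and 7 lower. In DKI 1 was higher and 6 lower (26% of all genes called), but only Il2ra (-1.25, adjusted p = 0.0095) and Il2rb (-0.89, adjusted p = 0.0092) were called against WT number 4 alone, the library of like depth. CD28 AYAA had 2 lower and 0 higher (3.61% of all genes called), and without WT number 1 it had 0. Ars2 KO had 1 higher, Stat5a, and 0 lower (0.399% of all genes called). CD28 Y170F had 0 called (0.0547% of all genes called), with 0 at an unadjusted p under 0.05 in edgeR and 0 by DESeq2 or limma-voom. B cell markers summed to 97.9 and 138 CPM in libraries labelled CD28 KO at day 1, against 13.7 to 30.8 CPM in WT, with 8 of 12 called higher and none at 0. Regulatory T cell markers (8 genes, from cells known for high Il2ra) summed to 162 and 170 CPM there, 214 to 237 CPM in DKI and 196 to 219 CPM in CD28 AYAA, against 264 and 330 CPM in WT. Of the 8, 4, 3 and 1 were called lower in that order, and none was at 0. Their part in the members' values was not tested.

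At day 3 Ars2 KO had 4 members higher and 1 lower than WT (12.9% of all genes called), libraries labelled CD28 KO 3 higher and 0 lower (20% of all genes called), DKI 4 higher and 1 lower (23.4% of all genes called) and CD28 AYAA 5 higher and 1 lower (21.7% of all genes called). The members' medians were 0.52, 0.11, 0.41 and 0.55 in that order, beside 0.03, 0.01, -0.02 and -0.01 over all genes. Cish, Socs1 and Osm were among those higher in each of the 4. Against WT number 4 alone, DKI again had 4 higher and 1 lower, with Il2ra (0.84, adjusted p = 0.048) in place of Stat5a. Without WT number 4 the counts in Ars2 KO and CD28 AYAA were 1 and 3 in all. CD28 Y170F had 0 called (0.0273% of all genes called), with 1, Cish, at an unadjusted p under 0.05 in edgeR and 0 by DESeq2 or limma-voom, and its Cish values were 54.0, 24.1 and 18.8 CPM against 80.7 and 40.6 CPM. On this day NK cell markers (10 genes) summed to 219 to 498 CPM in Ars2 KO, 457 to 531 CPM in libraries labelled CD28 KO, 337 to 386 CPM in DKI and 319 to 500 CPM in CD28 AYAA, against 190 to 204 CPM in WT, with none at 0. Of the 9 tested, 4, 5, 2 and 3 were called higher than WT in that order, and 0, 0, 1 and 1 lower. Regulatory T cell markers (8 genes) summed to 266 to 410, 307 to 322, 235 to 244 and 212 to 230 CPM in the same order, against 173 to 222 CPM in WT. Of the 8, 4, 4, 3 and 2 were called higher and 0, 0, 1 and 1 lower. Of the 13 T cell markers, 6, 10, 10 and 7 were called lower than WT in the same order, and 0, 0, 1 and 1 higher. NK cells and regulatory T cells carry IL-2 receptor chains themselves. The part of any of these cells or markers in the members' values was not tested.

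The difference between the day 3 and the day 1 effect of a genotype was tested directly. It was called for 9 members in libraries labelled CD28 KO, 8 upward and Stat5b downward (35.3% of all genes called), for 9 in DKI, 8 upward and Stat5b downward (32.5%), for 7 in CD28 AYAA, 6 upward and Stat5b downward (24.4%), and for 2 in Ars2 KO, Cish upward and Stat5b downward (3.68%). For Cish the effect was larger at day 3 by 4.18 (SE 0.50, adjusted p = 1.5e-06), 3.48 (SE 0.45, adjusted p = 7.8e-06), 3.07 (SE 0.45, adjusted p = 5.9e-05) and 1.90 (SE 0.44, adjusted p = 0.020) on the log2 scale in that order. In CD28 Y170F 0 members were called (0% of all genes called), with 1 at an unadjusted p under 0.05 in edgeR and 0 by DESeq2 or limma-voom. In a fit to Ars2 KO and WT alone 0 were called.

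Within each genotype, day 3 was set against day 1. Libraries labelled CD28 KO had 7 members higher and 1 lower (45.6% of all genes called), DKI 7 higher and 1 lower (47.4%), CD28 AYAA 6 higher and 2 lower (45.4%), Ars2 KO 3 higher and 2 lower (23.6%) and CD28 Y170F 3 higher and 6 lower (40.3%). Stat5b fell in CD28 AYAA, DKI, Ars2 KO and libraries labelled CD28 KO, by 0.46 to 0.73 on the log2 scale, and rose in CD28 Y170F (0.32, SE 0.09, adjusted p = 0.0081). That rise was not called without number 3 of its day 3 libraries (0.21, adjusted p = 0.095). Osm was called higher in the same 4 groups. In Ars2 KO it was higher by 0.82, which was 0.48 (adjusted p = 0.18) without its day 3 number 2 and not called without its day 1 number 1. In CD28 Y170F Osm was lower (-0.65, SE 0.25, adjusted p = 0.039). Leaving out any one of 5 of its 6 libraries lost that call (adjusted p = 0.054 to 0.16). Socs2 in Ars2 KO (0.83) was 0.53 (adjusted p = 0.14) without its day 3 number 3.

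**Figure D4:**
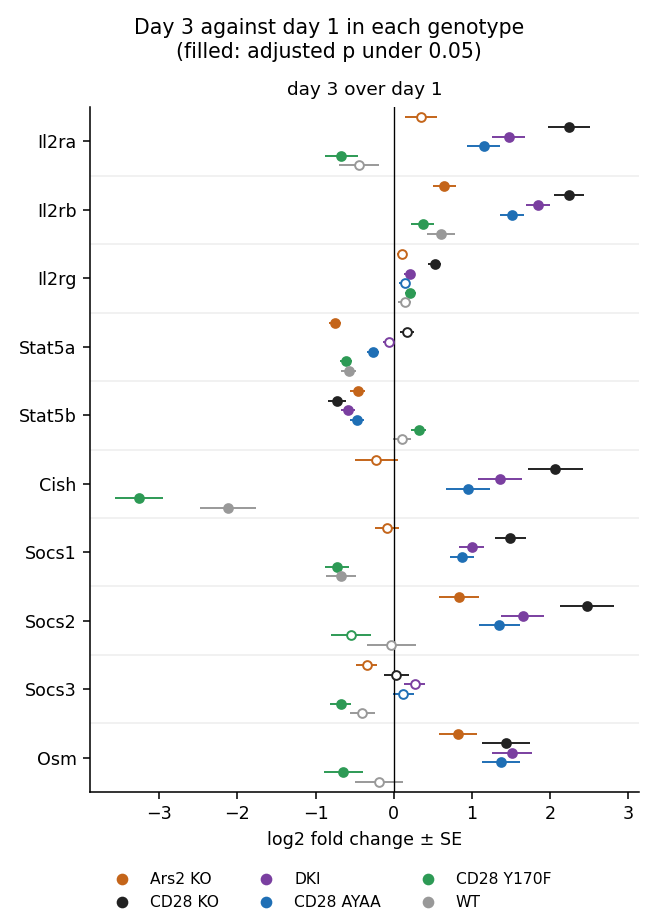
Log2 fold change of day 3 over day 1 for each member within each genotype, with SE bars and filled points at an adjusted p under 0.05. Cish lies at -2.12 in WT and -3.26 in CD28 Y170F, near 0 in Ars2 KO and at 0.95 to 2.06 in CD28 AYAA, DKI and libraries labelled CD28 KO.

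The altered forms of CD28 were compared with each other. At day 1, CD28 AYAA was lower than CD28 Y170F in 4 members and higher in 0 (4.35% of all genes called), namely Il2ra (-0.91, SE 0.21, adjusted p = 0.015), Il2rb (-0.70, SE 0.15, adjusted p = 0.0080), Cish (-1.05, SE 0.28, adjusted p = 0.032) and Stat5a (-0.27, SE 0.08, adjusted p = 0.041). No CD28 AYAA library overlapped the CD28 Y170F libraries in these 4. Called or not, 7 members lay wholly below CD28 Y170F and 2 wholly above. The share of all genes doing so was not counted, so these counts show nothing particular to the members. The count of members called was 0 to 2 on leaving out 1 library, and 0 without CD28 AYAA number 1. At day 3, CD28 AYAA was higher in 7 members and lower in 1 (36.8% of all genes called). Cish was at 301, 289 and 274 CPM in CD28 AYAA against 54.0, 24.1 and 18.8 CPM in CD28 Y170F (3.16, SE 0.30, adjusted p = 7.7e-08), Socs1 at 77.6, 79.3 and 68.4 CPM against 31.5, 33.2 and 32.6 CPM (1.21, SE 0.16) and Osm at 71.4, 72.0 and 67.6 CPM against 21.7, 15.8 and 13.6 CPM (2.05, SE 0.25). Stat5b was the one lower (-0.62, SE 0.09, adjusted p = 1.9e-05). This comparison uses no WT library, and none of its libraries lay under 12 M counts. Of 9 NK cell markers tested, 6 were higher and 1 lower in CD28 AYAA at day 3 (median 1.94). T cell markers were lower in 10 of 13 (median -0.54), B cell markers lower in 3 of 12 and regulatory T cell markers higher in 4 and lower in 2 of 8. Their part was not tested.

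DKI was also set against libraries labelled CD28 KO. At day 1, 7 members were higher in DKI and 0 lower (9.06% of all genes called). Il2ra was at 262, 254 and 271 CPM in DKI against 96.9 and 91.6 CPM in libraries labelled CD28 KO (1.48, SE 0.25, adjusted p = 4.3e-04), and Socs2 at 29.7, 27.9 and 32.02 CPM against 9.95 and 11.0 CPM (1.51, SE 0.32, adjusted p = 0.0045). The groups do not overlap, and they also differ in depth, all DKI libraries being under 12 M counts. B cell markers were lower in DKI in 6 of 12 (median -3.04), T cell markers higher in 4 of 13 and regulatory T cell markers higher in 3 of 8. Their part was not tested. The calls of Il2rb, Il2rg, Cish, Socs1 and Stat5a lay between adjusted p = 0.012 and 0.044, and without number 1 of libraries labelled CD28 KO 1 call was left of the 7. At day 3, 0 members were called (0.454% of all genes called), with 2 at an unadjusted p under 0.05 in edgeR, Il2ra and Socs2, and 0 by DESeq2 or limma-voom. Il2ra was at 726, 702 and 750.1 CPM in DKI against 487 and 400.1 CPM in libraries labelled CD28 KO there (0.71, SE 0.24, adjusted p = 0.2).

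Each genotype was also compared with unstimulated WT cells. At day 1, 8 members rose and 0 fell in Ars2 KO (53.6% of all genes called), libraries labelled CD28 KO had 5 higher and 2 lower (52.2%), 5 rose and 2 fell in DKI (49.1%), 6 rose and 0 fell in CD28 AYAA (50%) and 7 rose and 0 fell in CD28 Y170F (54.7%). Cish, Il2ra, Il2rg and Socs1 rose in all 5. Even in libraries labelled CD28 KO, Cish rose by 2.47 (SE 0.37, adjusted p = 4.8e-06) and Il2ra by 1.72 (SE 0.27, adjusted p = 8.1e-06) over day 0. At day 3, 7 rose and 2 fell in Ars2 KO (56.8%), DKI (58.1%), CD28 AYAA (60.2%) and libraries labelled CD28 KO (52.1%). In CD28 Y170F 6 rose and 2 fell (53.8%). Osm, not called at day 3 in WT or CD28 Y170F over day 0, rose by 1.69 to 2.27 in the other 4.

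Divided by exon length, to compare genes, the receptor chains led at the level of group means. In WT at day 1 Il2rg was at 142 CPM per kilobase, Il2ra at 125 and Il2rb at 99.2, Cish at 41.5, Stat5b at 26.6, Socs3 at 22.9, Socs1 at 20.1, Stat5a at 11.8, Osm at 10.4 and Socs2 at 7.48. At day 0 Il2rg, at 87.0, and Il2rb, at 63.3 CPM per kilobase, stood far above Il2ra, at 5.02, and Cish, at 1.61. In group mean level, Cish spanned 29.9-fold and Il2ra 28.7-fold over the 13 groups, against 5.36-fold for Il2rb and 1.91-fold for Il2rg. Ordered by mean, the lowest groups of Il2ra stood apart from each other (CD28 AYAA, DKI and libraries labelled CD28 KO at day 1 and then WT at day 0), while from DKI at day 3 down to CD28 AYAA at day 1 neighbouring groups overlapped.

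Across the 13 group means, on the log2 scale, the members fell into loose company. Il2ra ran closest to Socs2 (Pearson r = 0.96) and Cish to Socs1 (r = 0.94), Osm and Stat5b ran opposite (r = -0.88), and Socs3 and Stat5a ran together (r = 0.76) and apart from Il2ra (r = -0.06 and 0.05). Among all other genes with a mean log2 CPM of at least 3, those most like Cish were Ptp4a1 (r = 0.99), Nmd3 (r = 0.98) and Pfdn2 (r = 0.98), and those most like Il2ra were Mapk1ip1l (r = 0.99), Atp13a3 (r = 0.99) and Lrrc58 (r = 0.99). Eif3b, Sf3a2 and Psmd7 were most like Socs1, Caprin1, Idi1 and Uqcrq most like Socs2, and Kpna2, Ndufs5 and Hint1 most like Il2rb. Osm went most closely with Lrrc32 (r = 0.97), which encodes the surface protein GARP, then Ddx42 and Morc2a. The highest were lower for Stat5a (Rgs1, r = 0.93, Matr3 and Gatb) and Socs3 (Ftx, r = 0.95, Mrpl23 and Vars2), and Stat5b went with Zfp354c (r = 0.97), Arhgef18 and Pot1b and Il2rg with Capzb (r = 0.97), Tapbp and Cnot1. These are descriptions over 13 points that share stimulation, days and the WT libraries.

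Beyond the members, 70 genes of the pathway were listed and 66 tested. The lists, like the members, were chosen with earlier results of these data known. Their counts beside the shares of all genes are descriptions, not an independent check. Of 16 known STAT5 target genes outside the set, 10 rose and 3 fell in WT at day 1 over day 0 (51.3% of all genes called). Against WT, 3 were higher and 9 lower in libraries labelled CD28 KO at day 1 (43.3% of all genes called), 2 higher and 7 lower in DKI (26%), 0 higher and 4 lower in CD28 AYAA (3.61%). At day 3 more were higher than lower, with 9 targets higher and 0 lower in Ars2 KO (12.9% of all genes called). Of the same list 7 were higher and 1 lower both in DKI (23.4%) and in CD28 AYAA (21.7%), and 6 higher and 1 lower in libraries labelled CD28 KO (20%). The list's median log2 fold change in libraries labelled CD28 KO was -0.62 at day 1 and 0.52 at day 3. Lta, encoding lymphotoxin alpha, averaged 76.3 ± 4.63 CPM in libraries labelled CD28 KO (SD, n = 2), 84.3 ± 5.30 in DKI, 91.1 ± 12.9 in CD28 AYAA and 71.8 ± 37.2 in Ars2 KO (SD, n = 3 each), against 8.47 ± 5.79 in WT (SD, n = 2) at day 3. Bcl2l1, which encodes the survival protein BCL-XL, was higher by 1.31 to 1.48 and Ccnd2, encoding cyclin D2, by 0.59 to 0.93 on the log2 scale in these 4 genotypes. The kinase gene Pim2 went the other way in libraries labelled CD28 KO, lower at day 1 (-2.07, SE 0.22) and at day 3 (-0.77, SE 0.21, adjusted p = 0.010).

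Among 12 kinases and adaptors, 0 were higher and 7 lower than WT at day 3 in libraries labelled CD28 KO (20% of all genes called), 0 and 7 in DKI (23.4%), 0 and 5 in CD28 AYAA (21.7%) and 0 and 2 in Ars2 KO (12.9%). Jak3, the kinase bound to the common gamma chain, averaged 74.1 ± 7.44, 91.9 ± 5.82, 92.8 ± 2.55 and 98.7 ± 4.85 CPM in that order against 128 ± 11.9 CPM in WT. In libraries labelled CD28 KO it fell by 0.78 on the log2 scale (SE 0.11, adjusted p = 1.6e-05). Jak1, the kinase bound to the beta chain, was higher than WT at day 1 in libraries labelled CD28 KO (0.75, SE 0.14) and DKI (0.53, SE 0.13) and lower there at day 3 (-0.53, SE 0.14, and -0.71, SE 0.12). All 5 SOCS box partners, genes of the ubiquitin ligase that SOCS proteins recruit, were lower at day 1 in libraries labelled CD28 KO, led by Cul2 (-1.34, SE 0.19), and 3 of 5 in DKI, where 43.3% and 26% of all genes were called. The remaining SOCS genes, Socs4 to Socs7, gave 0 calls of 4 in every comparison with WT of the same day, where 0.0273% to 43.3% of all genes were called.

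Il2 itself was scarce in these libraries, averaging 0.0820 ± 0.0467 CPM in libraries labelled CD28 KO (SD, n = 2), 0.0665 ± 0.0587 in DKI and 0.126 ± 0.0938 in CD28 AYAA (SD, n = 3 each), against 1.32 ± 0.743 in WT (SD, n = 2) at day 1. On the log2 scale these differed from WT by -3.88 (SE 0.83, adjusted p = 5.1e-04), -4.09 (SE 0.86, adjusted p = 0.0014) and -3.25 (SE 0.66, adjusted p = 0.0095), and all these levels are low. Lif, the relative of Osm in the IL-6 family, was lower in the same 3 at day 1 and higher than WT at day 3 in all 4 genotypes, by 2.57 to 3.60 on the log2 scale. Il15ra, the alpha chain of the receptor for IL-15, was lower at day 1 in libraries labelled CD28 KO (-1.43, SE 0.15) and higher at day 3 in libraries labelled CD28 KO (0.95, SE 0.15), DKI (0.79, SE 0.14) and CD28 AYAA (0.90, SE 0.14). Il7r, the IL-7 receptor alpha chain that T cells lower on activation, was higher at day 1 in libraries labelled CD28 KO (1.89, SE 0.41) and DKI (1.18, SE 0.37). Of the 66 genes, 0 were called by edgeR in Ars2 KO at day 1 and in CD28 Y170F at day 1 and day 3. The shares of all genes called were 0.399%, 0.0547% and 0.0273% in that order. At an unadjusted p under 0.05 in edgeR there were 10, 1 and 3 of the 66.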

How the data were processed

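RNA of 34 T cell libraries was depleted of ribosomal RNA and sequenced in pairs after a strand-keeping kit, per the labels' protocols. The authors deposited 1 table of expected counts per gene, with 83.7% to 90.8% of values whole. The submitters' processing notes name bcl2fastq 2.20, FastQC, STAR, RSEM and limma and the builds mm10 and GRCm38. The annotation, filters and strand setting are not given in the sources used here. Gene IDs were named through GENCODE M21 (48058 of 48526 matched), and 62 shared symbols kept their IDs.

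Expected counts were rounded, genes with low counts were removed with filterByExpr (18292 genes left, at least 99.9% of counts kept) and libraries were scaled by TMM (factors 0.83 to 1.11). edgeR 4.0.16 in R 4.3.3 fitted 1 mean per group over all libraries, with its quasi-likelihood test and Benjamini-Hochberg adjustment over all genes tested. For the members, counts were common enough that precision was set mainly by the spread between libraries, and their p-values measure that spread. The common coefficient of variation was 0.16. For scarce genes such as Il2, counting noise also sets the precision. Columns of libraries labelled CD28 KO at day 3 carry numbers that differ from the titles, so they were assigned to the group only. The script was tested on simulated data. Alternatives were RLE size factors, DESeq2 1.42.0, limma 3.58.1 voom, no filter, only the groups compared, low depth (under 12 M counts) as a term, the replicate number as a block, and each library left out. Of the comparisons with 3 same-numbered pairs, 2 had every correlation over 0.1. These were Ars2 KO day 3 against day 1 (0.239, 0.233 and 0.101) and CD28 AYAA against CD28 Y170F at day 1 (0.279, 0.326 and 0.385). WT day 3 against day 1 has 2 pairs, both at 0.292. With 2 libraries per group both pairs must give the same value. WT number 4 was of low depth on both days, so that value cannot tell pairing from depth. The block changed no member's call in these 3 comparisons.

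Members and lists were chosen with earlier results of these data known. The members are always named. From the pathway lists, called genes were named from the up to 6 of smallest p per list and comparison, and the genes most like a member were the 3 of highest correlation over 13 group means. Promoter sequences are from RefSeq.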

Additional observations from a re-analysis of the deposited data

Results flagged for a closer look

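The results below are those in which the difference from WT changed between day 1 and day 3, each tested as an interaction with edgeR's quasi-likelihood test and adjusted over all genes. Values are the day 3 effect minus the day 1 effect on the log2 scale. The genotypes share the 4 WT libraries, so the values are not independent of each other, and CD28 Y170F gave none.

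Cish changed most, with 1.90 for Ars2 KO, 3.07 for CD28 AYAA, 3.48 for DKI and 4.18 for libraries labelled CD28 KO. Il2ra changed by 2.68, 1.91 and 1.59 in libraries labelled CD28 KO, DKI and CD28 AYAA (adjusted p at most 0.0012). Il2rb changed by 1.64, 1.24 and 0.91 in the same order (adjusted p at most 0.00605), Socs1 by 2.17, 1.67 and 1.55 (adjusted p at most 0.000135), Socs2 by 2.50, 1.68 and 1.38 (adjusted p at most 0.0151) and Osm by 1.63, 1.70 and 1.56 (adjusted p at most 0.00527).

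Stat5b changed downward, with -0.57 for Ars2 KO, -0.58 for CD28 AYAA, -0.69 for DKI and -0.83 for libraries labelled CD28 KO (adjusted p at most 0.0327). Stat5a changed by 0.74 in libraries labelled CD28 KO and 0.52 in DKI. Il2rg changed by 0.39 in libraries labelled CD28 KO (adjusted p = 0.012), and Socs3 by 0.67 in DKI (adjusted p = 0.0178). The Ars2 KO values are among the least firm: the count of members called there was 0 to 4 on leaving out 1 library. Socs3 in DKI was not called without WT number 4 of day 1 (0.55) or either WT library of day 3 (0.64 and 0.67). Il2rg in libraries labelled CD28 KO was not called without WT number 4 of day 1 (0.31) or with no filter (0.39, adjusted p = 0.089). In CD28 AYAA, Il2rb and Socs2 were lost without WT number 1 of day 1 or number 4 of day 3. Stat5b was lost there without the first and Osm without the second.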

How the results depend on the processing

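No called member reversed its direction under any alternative. RLE size factors and DESeq2 kept all 218 calls, limma-voom lost 4, the depth term 9, no filter 12 and only the groups compared 23, and leaving out 1 library at a time kept calls 1053 times and lost them 143 times. The counts of members called that moved by over 1.5 times were as follows. DKI over libraries labelled CD28 KO at day 1 gave 4 with limma-voom, 4 with the depth term and 2 with the replicate block, against 7. Without the filter, Ars2 KO over WT at day 1 gave 0 against 1, CD28 AYAA over WT at day 1 gave 4 against 2, and DKI over libraries labelled CD28 KO at day 3 gave 1 against 0. With only the groups compared, which leaves fewer libraries to estimate the spread, day 3 over day 1 gave 2 in Ars2 KO against 5, 5 in CD28 Y170F against 9 and 2 in WT against 4. In that fit Ars2 KO over WT gave 0 at day 1 against 1 and 0 at day 3 against 5, its interaction 0 against 2, CD28 AYAA over CD28 Y170F at day 1 gave 7 against 4, and DKI over libraries labelled CD28 KO at day 3 gave 4 against 0. The cause of the other moves was not tested.

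Leaving out 1 library gave ranges of 0 to 0 for Ars2 KO over WT at day 1 and 1 to 6 at day 3, 3 to 7 for Ars2 KO day 3 over day 1 and 0 to 4 for its interaction. The ranges were 0 to 2 for CD28 AYAA over WT at day 1, 3 to 6 at day 3, 4 to 9 for its interaction and 0 to 2 over CD28 Y170F at day 1. They were 5 to 9 for CD28 Y170F day 3 over day 1, 0 to 2 for CD28 Y170F over WT at day 3, 2 to 7 for DKI over WT at day 1, 1 to 6 for DKI over libraries labelled CD28 KO at day 1, 2 to 3 for libraries labelled CD28 KO over WT at day 3 and 2 to 4 for WT day 3 over day 1. The libraries that moved a count by over 1.5 times were these, each count being that found with the named library left out. Without WT number 1 at day 1 the counts were 2 for DKI and 0 for CD28 AYAA over WT, and 1 and 4 for the interactions of Ars2 KO and CD28 AYAA. Without WT number 4 at day 1, WT day 3 over day 1 gave 2, and without WT number 4 at day 3, Ars2 KO gave 1, CD28 AYAA 3 and the Ars2 KO interaction 0. Any 1 of the 5 libraries took Ars2 KO over WT at day 1 to 0. Ars2 KO number 1 at day 1 took its day 3 over day 1 to 3 and its interaction to 0, number 2 at day 1 the interaction to 1, number 2 at day 3 to 0 and number 3 at day 3 to 4. CD28 AYAA number 1 at day 1 took CD28 AYAA over WT and over CD28 Y170F to 0, numbers 2 and 3 took both to 1, and CD28 Y170F numbers 1, 2 and 3 took the second to 1, 2 and 2. CD28 Y170F number 3 at day 3 took its day 3 over day 1 to 5, and number 1 at day 3 took CD28 Y170F over WT to 2. DKI number 2 at day 1 took DKI over WT to 4. For DKI over libraries labelled CD28 KO at day 1, the counts were 1 and 3 without CD28 KO numbers 1 and 2, and 3 and 2 without DKI numbers 1 and 3. The replicate block lost 7 calls in all, 5 of them in DKI over libraries labelled CD28 KO at day 1, the others being Il2rb in CD28 Y170F day 3 over day 1 (adjusted p = 0.053) and Stat5a in DKI day 3 over day 0 (adjusted p = 0.051). With 2 WT libraries a day, one of them of low depth, the comparisons with WT are limited by that pair.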
